A study of Mus musculus with 2 samples.

Results

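Hox genes encode homeodomain transcription factors that lie in 4 clusters, Hoxa to Hoxd. The probe sets described here were those that the platform's annotation pairs with 1 gene only, whose symbol is Hoxa, Hoxb, Hoxc or Hoxd followed by a number from 1 to 13. They covered 37 genes of the 19938 genes on the array with such a probe set, each by 1 probe set. Hoxb8 was not among them, because its probe set is shared with Hoxb7.

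The tissue was fetal mouse ear at E18.5, near birth, on the BALB/c background. 1 array held wild-type RNA and 1 array held RNA of animals null for both Myf5 and Myod1, genes whose products turn progenitors into skeletal muscle. Neither the dissected part of the ear nor any pooling of animals is labelled. Since each genotype has 1 array, no difference below has a replicate check or a p-value, and precision is limited by the number of arrays.

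The number in a Hox symbol is the paralog group. Genes with the same number in different clusters descend from 1 ancestral gene, and along each cluster low numbers are expressed towards the head and high numbers towards the tail. In the head the neural crest of the first branchial arch lacks Hox expression, whereas the crest of the second arch expresses Hoxa2, which directs the second arch's skeleton and the growth of the outer ear. Paralog groups above 5 are known mostly from the trunk, the limbs and the urogenital tract.

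Values are the deposited log2 signals. Each array's median over all 35557 probe sets, 5.65 in the wild type against 5.70 in the double knockout, served as a floor to which lower values were raised. A gene was compared when it lay above the floor on at least 1 array. Signals of different probe sets do not measure relative abundance, so each Hox gene is compared only with itself between the arrays and with the floor.

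Genes above the floor came from paralog groups 2 to 5 alone. They were Hoxa2, Hoxb2, Hoxb3, Hoxa4 and Hoxb5 in the wild type, and the same genes without Hoxb5 in the double knockout. These are 5 of the 14 measured genes of groups 1 to 5. Of the 23 measured genes of groups 6 to 13, 0 lay above the floor on either array. Over all named genes, 62.5% lay above it on at least 1 array. All 5 genes belong to the Hoxa and Hoxb clusters, with 0 of 9 in the Hoxc cluster and 0 of 9 in the Hoxd cluster. With the floor at the 25th percentile instead, which 84.4% of all named genes passed, 14 of 14 genes of groups 1 to 5 and 19 of 23 of groups 6 to 13 passed on at least 1 array. A value below the floor does not show that a gene was silent, since a probe set can respond weakly or its transcript can come from few cells of the tissue.

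**Figure D1:**
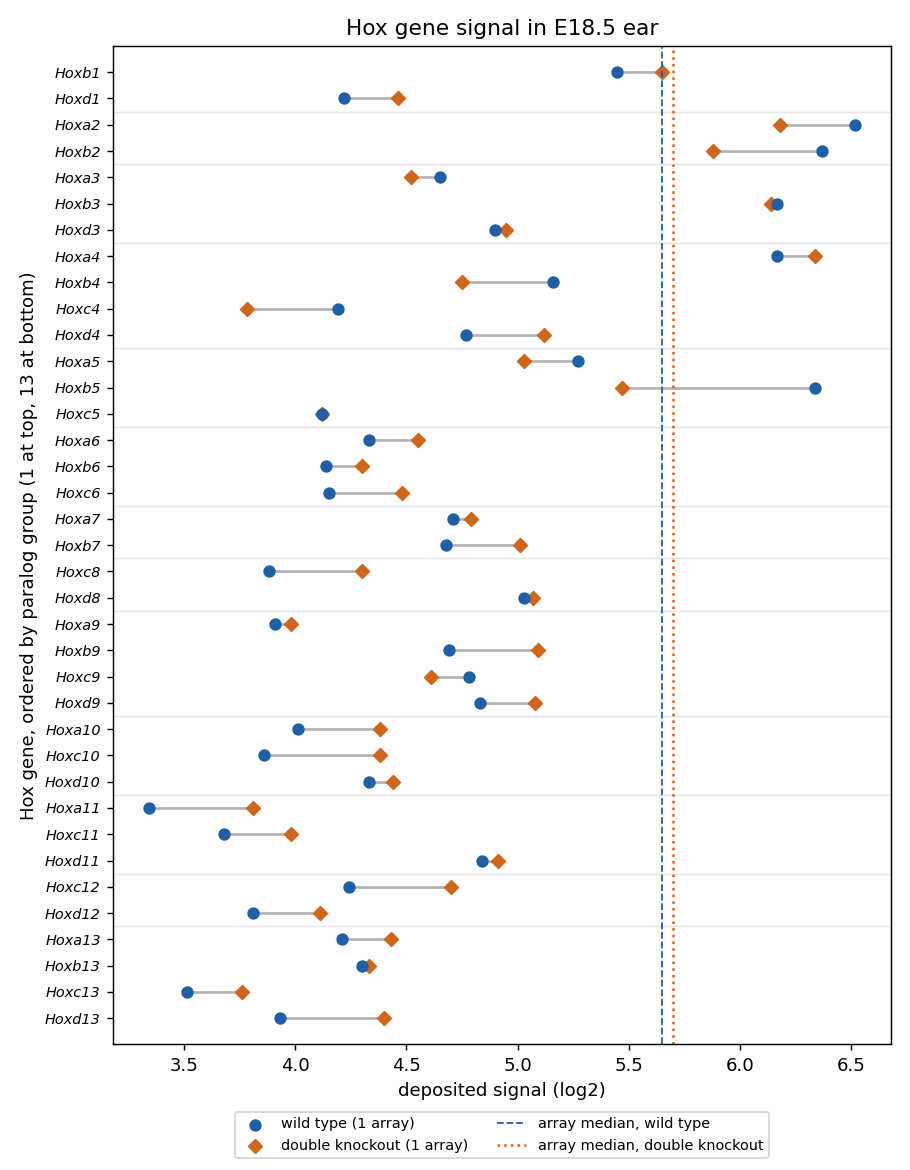
Deposited log2 signal (x axis) of 37 Hox genes (y axis, paralog group 1 at the top and 13 at the bottom) on the wild-type array (circles) and the double-knockout array (diamonds), 1 array each; vertical lines mark each array's median, 5.65 and 5.70. Symbols right of the lines belong to Hoxa2, Hoxb2, Hoxb3, Hoxa4 and, in the wild type, Hoxb5; lengths of the grey bars, not positions between genes, can be compared.

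Between the genotypes, 0 of the 5 compared Hox genes were 2-fold or more lower in the double knockout and 0 were 2-fold or more higher. Over all 12458 genes compared, 1.71% were 2-fold or more lower and 0.482% were 2-fold or more higher. The floor fixed the Hox count lower at 0. The highest wild-type value, Hoxa2 at 6.52, lay only 0.87 above the floor, so even complete loss would fall short of 2-fold. When no floor was set, 0 of 37 Hox genes were 2-fold or more lower and 0 higher, against 1.4% and 0.461% of all genes. The median log2 difference, double knockout minus wild type, was -0.34 over the 5 Hox genes and -0.01 over all genes compared. It was 0.17 over all 37 Hox genes when no floor was set, through the low values of the other genes. Of the 5 genes, 4 read lower in the double knockout and 1 read higher. For scale, the log2 differences of every gene that exceeded both floors spread with a standard deviation of 0.344, from a 5th percentile of -0.44 to a 95th of 0.40. Where a gene had several probe sets, their differences varied by a standard deviation of 0.168 (619 genes), a measure of probe noise that says nothing of animals.

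Both measured genes of paralog group 2 were above the floor on both arrays and read lower in the double knockout. Hoxa2, the gene of second arch identity and of the outer ear (probe set 10544751), read 6.52 in the wild type against 6.18 in the double knockout. That is 1.26-fold lower, a log2 difference of -0.34, and 8.83% of all genes compared lay at or below this difference. Hoxb2, which acts in the hindbrain and in development of the facial nerve (probe set 10380660), read 6.37 and 5.88. That is 1.41-fold lower, a log2 difference of -0.49, with 4.86% of all genes at or below it, and its double-knockout value lay only 0.18 above the floor. Both differences exceed the spread between probe sets of a gene, and neither has a measure of the spread between animals. That spread was pooled over all signals above the floor and was not measured for signals near it. The Hoxa2 difference about equals the standard deviation of 0.344 over all genes that exceeded both floors.

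The sequence before the start of Hoxa2 is shown because Hoxa2 is the member whose function lies in the ear itself. It covers 250 bases on the minus strand at chr6:52164832-52165081 (RefSeq, GRCm38.p6), 5′ to 3′, with capitals for a match to TGATNNAT, the letters read by a Hox protein together with its cofactor Pbx, searched on both strands.

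Hoxa2 upstream: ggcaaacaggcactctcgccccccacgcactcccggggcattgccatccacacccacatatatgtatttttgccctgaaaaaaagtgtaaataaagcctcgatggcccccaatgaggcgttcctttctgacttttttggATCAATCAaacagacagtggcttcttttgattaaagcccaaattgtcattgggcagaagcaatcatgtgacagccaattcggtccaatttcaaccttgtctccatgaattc

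The match lies 111 to 104 bases before the start, on the other strand from the gene. Such letters occurred in 4 of 24 upstream windows of 22 Hox genes in the table, those of Hoxa2, Hoxb1, Hoxb8 and Hoxd11, and in 7.68% of all 32851 windows of that length. Of the 5 Hox genes above the floor only Hoxa2 has an entry in that table. A match to these letters does not show that a protein binds there.

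In paralog group 3, Hoxb3 (probe set 10380654), a hindbrain and neck gene, read 6.17 in the wild type against 6.14 in the double knockout, a log2 difference of -0.03. That difference is smaller than the spread between probe sets of a gene. Its paralogs were below the floor on both arrays: Hoxa3, needed for the thymus and parathyroid, read 4.65 and 4.52, and Hoxd3 read 4.90 and 4.95. In paralog group 4, Hoxa4, which patterns neck vertebrae (probe set 10544763), read 6.17 and 6.34, with the double knockout 1.12-fold higher, a log2 difference of 0.17. It was the only compared Hox gene that read higher there. Hoxb4 read 5.16 and 4.75, Hoxc4 4.19 and 3.78, and Hoxd4 4.77 and 5.12, all below the floor.

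Paralog group 5 held the largest difference among the Hox genes compared. Hoxb5 (probe set 10380641), a gene of the lower hindbrain, the neural crest of the gut and the shoulder region, read 6.34 in the wild type against 5.47 in the double knockout. The second value lay 0.23 below the floor, so Hoxb5 was at least 1.56-fold lower, and 3.14% of all genes compared lay at or below that bound. Without a floor its log2 difference was -0.87, still short of 2-fold. Its paralog Hoxa5 read 5.27 and 5.03 and Hoxc5 4.12 and 4.12, all below the floor. The deposited Hoxc5 values were identical to the last decimal, as were those of 1227 probe sets in all, 1039 of them below the wild-type median.

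Paralog group 1 acts earliest in hindbrain and inner ear formation. Hoxb1 came close to the floor, at 5.45 in the wild type against 5.65 in the double knockout, 0.20 and 0.05 below it. Hoxd1, which marks a class of pain-sensing neurons, read 4.22 and 4.46. Neither entered the comparison.

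The central genes of groups 6 to 8 read from 3.88 to 5.03 on the wild-type array and from 4.30 to 5.07 on the double-knockout array. They were Hoxa6, Hoxb6, Hoxc6, Hoxa7, Hoxb7, Hoxc8 and Hoxd8, and Hoxd8 gave the upper end on both arrays. The posterior genes of groups 9 to 13, which pattern the lumbar and tail region, the limb and the genital tract, read from 3.34 to 4.84 and from 3.75 to 5.09. Of these 16 genes Hoxd11 gave the upper end in the wild type, at 4.84 and 4.91, and Hoxb9 in the double knockout, at 4.69 and 5.09. The others were Hoxa9, Hoxc9, Hoxd9, Hoxa10, Hoxc10, Hoxd10, Hoxa11, Hoxc11, Hoxc12, Hoxd12, Hoxa13, Hoxb13, Hoxc13 and Hoxd13. All lay at least 0.61 below the floor on each array.

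Below the floor most Hox values read slightly higher in the double knockout, and the source of this was not tested. Of the 23 genes of groups 6 to 13, 22 read higher in the double knockout, with a median log2 difference of 0.25 without a floor, and the exception was Hoxc9 at -0.17. All named genes below the floor on both arrays leaned the same way, with 64.9% higher in the double knockout and a median of 0.13. The 9 genes of groups 1 to 5 below the floor on both arrays were split, with 4 higher, 4 lower and Hoxc5 equal, and their median was 0.00. Values at this level are not read as a change in expression.

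**Figure D2:**
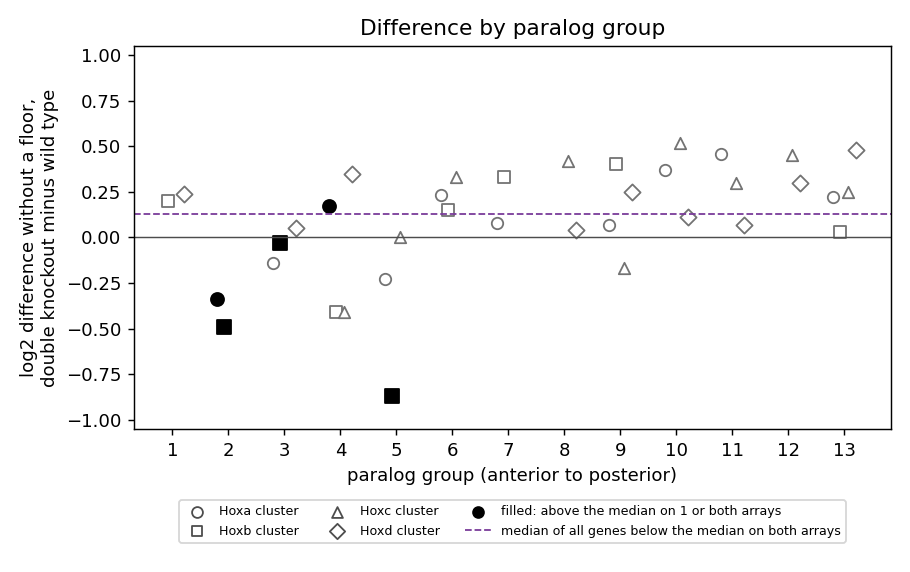
Log2 difference without a floor, double knockout minus wild type (y axis), of each Hox gene against its paralog group (x axis), 1 array per genotype; symbol shape gives the cluster, filled symbols are the 5 genes above the array median on 1 or both arrays, and the dashed line is the median of 0.13 over all genes below it on both. The filled symbols run from -0.87 (Hoxb5) to 0.17 (Hoxa4), and 22 of the 23 open symbols in groups 6 to 13 lie above 0.

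Other transcripts of the clusters had 10 probe sets, and 0 of them lay above the floor on either array. The probe set shared by Hoxb8 and Hoxb7 read 3.70 in the wild type against 4.39 in the double knockout. Hoxaas2, a transcript antisense to the Hoxa cluster, read 5.59 and 5.43, Hottip, a noncoding RNA at the posterior end of that cluster, 3.78 and 3.94, and the probe sets of Hoxd3os1 4.88 and 3.62 in the wild type, with log2 differences of 0.12 and 0.41. The remaining 5 were microRNA genes. Their mature sequences are shown because they fall into a family beside the anterior genes and a family beside the posterior genes; seeds, bases 2 to 8, are in capitals (RefSeq, GRCm38.p6).

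miR-10a-5p: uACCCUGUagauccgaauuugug
miR-10b-5p: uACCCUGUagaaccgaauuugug
miR-196a-5p: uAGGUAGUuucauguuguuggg
miR-196b-5p: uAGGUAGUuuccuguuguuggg

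Both miR-10 sequences share the seed ACCCUGU and lie beside Hoxb4 and Hoxd4. Mir10a read 2.29 in the wild type against 2.08 in the double knockout, and Mir10b read 2.20 and 1.94. The miR-196 sequences share the seed AGGUAGU and lie beside genes of group 9, and Mir196a-1 and Mir196a-2 encode the same mature RNA. Mir196a-1 read 3.09 and 3.84, Mir196a-2 3.11 and 3.34, and Mir196b 3.97 and 4.29. At this level the arrays give no measure of these microRNAs in the ear.

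Of the partners and regulators of Hox genes in 4 lists, 0 of the compared members were 2-fold or more apart between the genotypes. Over all genes compared, 1.71% were 2-fold or more lower and 0.482% higher, so counts of 0 in lists this short are near that share. The TALE proteins Pbx, Meis and Pknox bind DNA together with Hox proteins, and all 8 measured members lay within 2-fold with a median log2 difference of 0.06. Pbx3 read 9.54 in the wild type against 9.74 in the double knockout, and Meis2 read 9.19 and 9.50. Polycomb and trithorax proteins keep Hox genes off or on. All 22 measured members of that list lay within 2-fold, with a median of 0.02, Ezh2 at 9.06 and 9.16 and Kmt2a at 8.92 with a difference of 0.08. Retinoic acid sets the anterior limits of Hox expression in the embryo. Of its pathway 15 of 17 measured genes lay above the floor, all within 2-fold and with a median of 0.07, and Crabp1 read 10.11 and 10.26 and Dhrs3 8.60 and 8.80. Rxrg, a retinoid receptor that muscle also expresses, had the largest difference in that list, 8.06 and 7.28. Of the inducers of Hox genes 4 of 8 lay above the floor, with a median of -0.04, among them Gdf11 at 7.23 and 6.93, Fgf8 at 5.77 and 6.17, Cdx1 at 5.83 and 6.05 and Egr2, a hindbrain factor, at 6.08 and 5.73.

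Genes next to the Hox clusters were the 3 nearest named protein-coding genes on each side. Of those compared 0 were past 2-fold, again near the share over all genes. Of 22 measured, 17 lay above the floor, with a median of -0.05. Atp5g1 and Atp5g2, of the mitochondrial ATP synthase, were those of highest signal, at 11.12 and 10.47 and at 10.77 and 10.62. Evx2, the homeobox gene at the end of the Hoxd cluster, read 5.66 and 5.98, above the floor by a small margin, while Evx1 beside the Hoxa cluster read 4.58 and 4.88.

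Genes that mark the region of origin were set beside the Hox values. Of the second arch and outer ear list 18 of 19 measured genes lay above the floor, with a median of -0.06. Prrx1 read 9.90 and 9.73, Eya1 9.51 and 9.55, and Six2, which Hoxa2 represses in the second arch, 8.05 and 8.08. The only member past 2-fold was Tbx15, at 8.68 and 7.60, 2.12-fold lower in the double knockout. Of the limb and trunk mesoderm list 9 of 11 lay above the floor on at least 1 array, with a median of -0.08. Tbx18, which is also in the second arch and outer ear list, read 8.86 and 9.09, so the lists do not separate these origins fully. Foxc2 read 8.58 and 8.50, and Meox2, a homeobox gene of somites and muscle, read 8.43 and 7.41, 2.02-fold lower. Of the forebrain and midbrain genes, tissue that is free of Hox expression, 5 of 12 lay above the floor on at least 1 array, with a median of 0.08. Emx2 read 6.02 and 6.26, and Emx1 read 5.62 and 6.25 and so was at the floor in the wild type. Otx2 went the other way, at 6.03 and 5.65, at least 1.26-fold lower, while the other 4 compared genes read higher in the double knockout. Emx2 is also in the kidney and gonad list, so it does not mark this tissue alone.

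**Figure D3:**
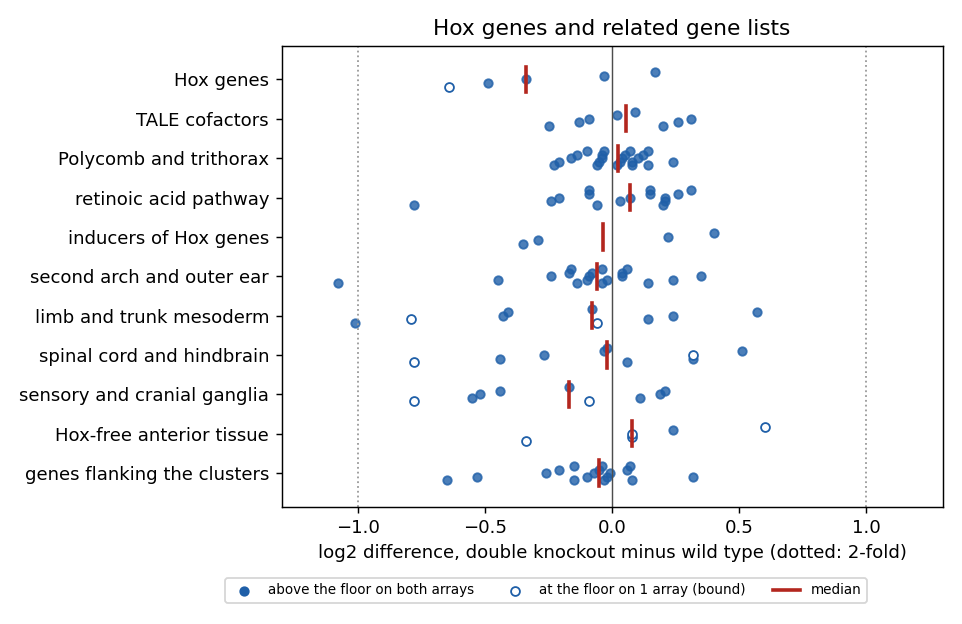
Log2 difference, double knockout minus wild type (x axis), for the 5 compared Hox genes and the compared members of 10 related lists (y axis), 1 array per genotype; open symbols are genes at the floor on 1 array, whose value is a bound, red bars are list medians and dotted lines mark 2-fold. Medians run from -0.34 for the Hox genes to 0.08, and only Tbx15 and Meox2 pass 2-fold.

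Neural markers touch the same question, because hindbrain, spinal cord and cranial ganglia express Hox genes. Of the spinal cord and hindbrain list 9 of 17 measured genes lay above the floor on at least 1 array, with a median of -0.02. The summed linear signal of the list was 1393 in the wild type against 1351 in the double knockout. Such sums, here and below, are weighted towards the probe sets of highest signal, so they can hide differences in weaker genes and do not measure cell amounts. Gata3 and Gata2, which other tissues of the ear also express, read 8.09 and 8.03 in the wild type and differed by -0.02 and -0.03. Of the ganglion list all 9 measured genes lay above the floor in the wild type but 7 in the double knockout, with a median of -0.17, 6 of 9 below 0 and sums of 4408 and 4374. Stmn2 read 10.99 and 11.20 and Nefl 10.16 and 9.99. Phox2a, a factor of autonomic and cranial neurons, read 6.48 and 5.63, at least 1.72-fold lower. Prph, Isl1 and Scn10a differed by -0.52, -0.44 and -0.55, and Pou4f1, at the floor in the double knockout, by a bound of -0.09. Ntrk2 and Ntrk3 read higher there, by 0.11 and 0.19. The part of neural cells in the lower Hoxa2, Hoxb2 and Hoxb5 values was not tested.

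The tissue on the arrays differed in other ways, listed here because whole-tissue RNA cannot tell fewer cells of a type from less RNA per cell. Inner ear markers were present and close on both arrays, with 12 of 16 genes above the floor and a median of -0.01, Oc90 at 11.28 and 11.26 and Coch at 8.63 and 8.95. The other 4, below the floor on both arrays, were Otos, Slc26a4 and the hair cell factors Pou4f3 and Gfi1. Cartilage markers had a median of 0.00 over 10 genes, with Col2a1 at 9.70 and 9.75 and Cnmd at 9.54 and 9.75. Of 20 muscle genes all 20 were 2-fold or more lower in the double knockout, and their summed signal was 38877 in the wild type against 847. Of 13 brain genes 5 were 2-fold or more higher, with sums of 2130 and 3341. Of 11 compared salivary gland genes 9 were 2-fold or more higher, with sums over all 12 measured of 547 and 11553. Of 13 compared fat cell genes 5 were, with sums over all 14 measured of 8954 and 15947. Their part in the Hox values was not tested. In 3 other lists the floor was passed on at least 1 array by 2 of 8 genes for kidney and gonad, 2 of 10 for gut and lung, and 7 of 13 for blood cells, among which the neutrophil gene Ngp, at 7.24 and 5.62, passed 2-fold.

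The targeted genes read lower in the double knockout, Myod1 at 6.95 and 6.38 and Myf5 at 5.94 and 5.25. No source used here states whether their probe sets lie in the deleted parts, so they check the labels poorly. Their relatives Myf6 and Myog read 8.04 and 4.27 and 7.03 and 4.52.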

How the data were processed

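Each array gave 1 log2 value per probe set, used as the authors deposited it. MAS5, without a version, is the tool in the submitters' processing notes; MAS5 reads mismatch probes, which this whole-transcript array design lacks, so how the deposited values were made is unsettled, and no source used here states the background correction, the normalization between arrays or the genome build. The log2 base of the deposited values was read from their range, 0.75 to 13.27. All 35557 probe sets were kept, and 21789 were paired with 1 gene by the platform annotation, which can be old. For each gene the probe set of highest mean linear signal was kept. Values below each array's 50th percentile were raised to it, and a fold against a raised value is a bound, written "at least". With 1 array per group there is no test; 2-fold marks a count.

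The members, the gene lists and the tests were chosen with earlier results of these data known. All Hox genes are named; of other lists the 2 members of highest signal, those past 2-fold, and single genes a comparison turns on. Rxrg, Six2, Phox2a, Prph, Isl1, Scn10a, Pou4f1, Ntrk2, Ntrk3, Otx2, Emx1, Evx1, Evx2, Cdx1 and Egr2 were chosen after their values were seen. For muscle, brain, gland, fat, kidney and gut lists counts and sums stand in for names. Alternatives were 3 other scalings, 2 other floors, no floor, a pseudocount, fold thresholds of 1.5 and 3, and a median of each gene's probe sets. The calculation was tested on simulated data. Its effects were larger than any Hox difference and lay in genes of higher signal than any Hox gene. It therefore does not show how small differences near the floor behave. Python 3.11.15, numpy 2.4.6, pandas 2.3.3 and statsmodels 0.14.6 were used.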

Additional observations from a re-analysis of the deposited data

How the results depend on the processing

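The count of Hox genes past 2-fold stayed at 0 in each direction under the 3 scalings, with the floor at the 25th percentile, without a floor and with the pseudocount, and became 1 lower (Hoxb5) at a threshold of 1.5-fold. Under the 3 scalings the floor at the 50th percentile still held the count lower at 0 by construction. The pseudocount shrinks falls in genes of low signal. Chiefly the 25th percentile floor and the setting without a floor could therefore have shown a 2-fold fall. A value was taken to move when it shifted by more than 0.168, the spread between probe sets of a gene. Each Hox gene has 1 probe set, so the median over probe sets could not change a Hox value. The 3 scalings left the median difference between -0.38 and -0.32. The floor decides which genes enter. At the 25th percentile 29 Hox genes lay above it in the wild type against 32 in the double knockout, the median was 0.12, and it was -0.03, 0.12 and 0.24 in groups 1 to 3, 4 to 8 and 9 to 13, against -0.34 and -0.24 in the first and second of these at the 50th. In all, 14 of 14 genes of groups 1 to 5 and 19 of 23 of groups 6 to 13 then passed on at least 1 array, so the limit to groups 2 to 5 holds only at the 50th percentile. At the 75th percentile 0 Hox genes lay above it in the wild type against 0 in the double knockout, so no median could be had and the counts past 2-fold were 0 by construction. Without a floor, over 37 genes, the median was 0.17, and -0.03, 0.12 and 0.27 in the same groups. With each array's median signal added as a pseudocount it was 0.09, and 0.00, 0.07 and 0.11. The sign of the overall median therefore rests on which genes enter; Hoxa2, Hoxb2 and Hoxb5 read lower under each setting in which they entered, Hoxb5 from -0.87 to -0.44. No paired analysis was possible because each genotype has 1 array.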
